A study of Caenorhabditis elegans with 6 samples.

Results

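The genes described here handle fatty acids before they are broken down or built into lipids. They comprise the acyl-CoA synthetase (acs) genes apart from acs-7, the carnitine palmitoyltransferase (cpt) genes and the lipid-binding protein (lbp) genes of Caenorhabditis elegans. The choice of members was made with earlier results of these data known. It was by gene symbol, as rows that carried the same gene and locus in all 7 deposited tables. Of 35 rows with these symbols, 32 met that rule (20 acs, 4 cpt and 8 lbp genes), out of 14789 loci used in all. The rows of cpt-1, cpt-3 and lbp-4 did not, because the control tables and the prx-5 tables gave different loci in these rows.

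A fatty acid enters metabolism only after an acyl-CoA synthetase has joined it to coenzyme A. Carnitine palmitoyltransferases then move long acyl chains between coenzyme A and carnitine, which lets them cross into mitochondria, and small lipid-binding proteins carry fatty acids through the aqueous parts of the cell or between tissues. In the worm the intestine is the main organ that stores and burns fat, and peroxisomes and mitochondria share the breakdown of fatty acids.

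RNA-seq libraries came from whole adults of the wild-type Bristol N2 strain, grown at 20 °C. L4 larvae were fed bacteria expressing double-stranded RNA on plates with 6 mM IPTG, and adults of the following generation were collected. The control group (3 biological replicates) received RNAi against tag-208, now named sorb-1, and the other group (3 biological replicates) received RNAi against prx-5, which encodes the receptor that imports most peroxisomal enzymes. Both groups thus carried an RNAi treatment, and an untreated group was not part of the comparison.

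RNA of prx-5 was higher, not lower, in the libraries labelled prx-5 RNAi, with 14.9, 21.3 and 23.5 FPKM against 4.48, 4.73 and 3.50 FPKM in the control libraries. Directions below are therefore those of the labels, and the group is called prx-5-labelled. The gene targeted in the controls, sorb-1, had 11.5, 12.9 and 6.96 FPKM in the controls and 13.6, 14.8 and 25.6 FPKM in the prx-5-labelled libraries. FPKM is a fragment count scaled by transcript length and by the size of the library. The number of reads is unknown, and depth estimated from the lowest values was 0.767 to 1.26 times that of control replicate 1. Markers of the intestine were higher in the prx-5-labelled libraries, with 12 of 14 tested markers called higher, a median log2 fold change of 1.41 and a summed level of 4467 to 6909 FPKM against 1736 to 2361 FPKM in the controls. No intestine marker was listed at 0 in any library. Whole worms were sequenced, so more cells of a type and more RNA per cell cannot be told apart. In the intestine markers, prx-5 replicate 1 stood nearer to the controls than the other prx-5-labelled libraries, at 1.00 above the control mean (median, log2) against 1.65 and 1.51.

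Among the 31 members that averaged 1 FPKM or more, 6 were higher in the prx-5-labelled libraries and 0 were lower. A gene was called at a Benjamini-Hochberg adjusted p under 0.05 by limma on log2(FPKM + 1), two-sided, over 13350 tested loci. Of all these loci 8.72% were called, 7.52% as higher and 1.2% as lower. The 6 genes were the synthetases acs-22, acs-14, acs-1 and acs-5 and the binding proteins lbp-5 and lbp-3. No cpt gene was called. At an unadjusted p under 0.05, 15 members were higher and 0 lower, and of all 13350 tested loci 2336 were higher and 595 lower. The median log2 fold change was 0.50 for the 19 tested acs genes, 0.27 for the 4 cpt genes and 0.64 for the 8 lbp genes, against 0.04 for all tested loci. Of the 31 members 23 lay above 0, and of all tested loci 53.4%. The remaining member, acs-15, lay under the filter at 0 to 0.943 FPKM.

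**Figure D1:**
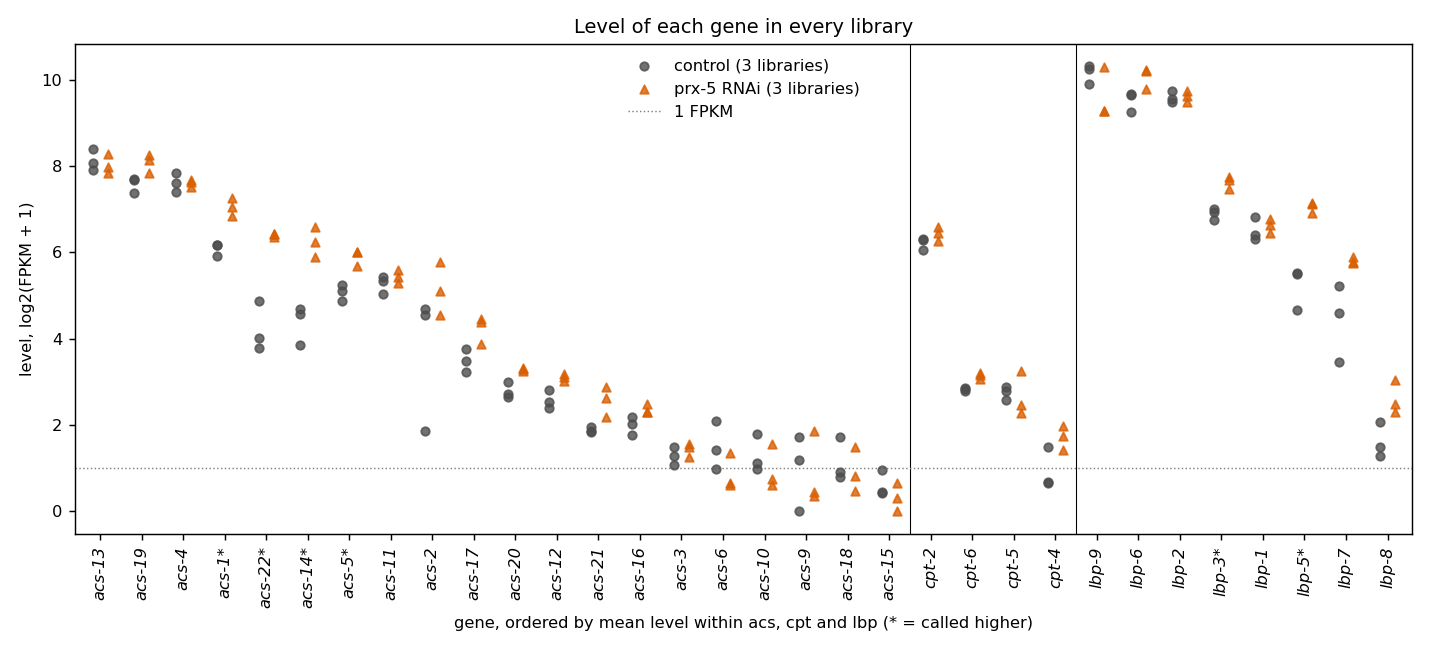
Level of the 32 genes as log2(FPKM + 1) in every library, ordered by mean level within the acs, cpt and lbp genes. Circles are the 3 control libraries and triangles the 3 prx-5-labelled libraries, the dotted line marks 1 FPKM, and asterisks mark the 6 genes called higher, whose triangles all lie above their circles.

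Whether the genes passed the threshold depended on which libraries were used, while their log2 fold changes moved less. With each library left out in turn, the log2 fold change ran from 1.96 to 2.51 for acs-22, from 1.60 to 2.04 for acs-14, from 1.56 to 1.99 for lbp-5, from 0.86 to 1.07 for acs-1, from 0.72 to 0.94 for acs-5 and from 0.67 to 0.82 for lbp-3. Leaving out prx-5 replicate 2 or prx-5 replicate 3 left 0 of the 6 calls, and leaving out control replicate 3 left 1, lbp-5, while the count over all tested loci dropped from 1164 to 97, 81 and 78. Leaving out control replicate 1 left 3 (acs-14, acs-22 and lbp-5), leaving out control replicate 2 left 4, and leaving out prx-5 replicate 1 left 6. With the authors' joint scaling of the libraries, which moved all log2 fold changes by a median of -0.13, acs-5 and lbp-3 were no longer called. The same genes were lost with median-ratio scaling, and acs-5 also with quantile normalization.

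Levels spanned a wide range within each sub-family. Among the synthetases, acs-13, acs-19 and acs-4 were the most abundant, with means of 280 ± 49.3, 191 ± 22.5 and 197 ± 29.9 FPKM in the controls (SD, n = 3), and none of them was called. Together these genes made up 70.6% to 77.2% of the summed acs FPKM in the control libraries and 57.2% to 65.4% in the prx-5-labelled ones. The prx-5-labelled libraries thus held a larger share of the summed acs FPKM in genes other than acs-13, acs-19 and acs-4. The 4 called acs genes made up 12.7% to 17.5% in the controls and 25.3% to 31.7% in the prx-5-labelled libraries. They were chosen as called higher in these same libraries, so that direction was set in advance.

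The highest fold change belonged to acs-22 (WBGene00017012, plus strand of chromosome X, locus from 8931317 to 8939275), a homologue of the mammalian fatty acid transport proteins, which take up very long chains and activate them. Its control libraries had 28.4, 15.1 and 12.7 FPKM and its prx-5-labelled libraries 84.96, 85.5 and 80.6 FPKM. The groups did not overlap, and the prx-5-labelled values varied by only 3.21% of their mean against 45.1% for the controls. The fold of the means was 4.46, and the log2 fold change 2.18 ± 0.28 (SE, adjusted p = 0.0114). The locus overlaps the annotated gene dylt-2 on the opposite strand, and whether strand was used in counting is not given in the sources used here.

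Its relative acs-20, which acts with acs-22 in the lipid barrier of the worm surface, showed a smaller difference at a lower level. It had 5.63, 7.03 and 5.23 FPKM in the controls and 8.90, 8.48 and 9.01 FPKM in the prx-5-labelled libraries. The groups did not overlap, but the log2 difference of 0.50 ± 0.18 did not pass the test (adjusted p = 0.153). The level of acs-22 was 2.15 to 5.05 times that of acs-20 in the controls and 8.94 to 10.1 times in the prx-5-labelled libraries. This ratio within a library does not depend on the scaling between libraries. Its direction was largely set in advance, because acs-22 was picked as a gene called higher in these same libraries.

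The synthetase gene acs-14 (WBGene00008669, chromosome V, 9508125 to 9510440) had the second-highest fold change of the acs genes. It had 24.9, 22.8 and 13.5 FPKM in the controls and 58.1, 94.7 and 74.8 FPKM in the prx-5-labelled libraries. Every prx-5-labelled value was above every control, and control replicate 3 was the lowest library. The log2 fold change was 1.86 ± 0.28 (adjusted p = 0.0149), 3.72-fold by the means. Within single libraries the level of acs-14 was 0.0403 to 0.0958 of that of acs-13 in the controls and 0.189 to 0.375 in the prx-5-labelled libraries.

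The synthetase acs-1, which the worm needs to activate branched-chain fatty acids, had a higher level and a smaller difference. It had 59.1, 70.4 and 71.2 FPKM in the controls and 113, 151 and 132 FPKM in the prx-5-labelled libraries. The groups were well apart, and the log2 difference was 0.97 ± 0.17 (adjusted p = 0.0205). The locus (chromosome V, 6524916 to 6532096) overlaps the annotated gene hpo-26 on the opposite strand.

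Among genes related to the vertebrate long-chain synthetases, acs-5 differed while acs-4 and acs-13 did not pass the test. The gene acs-5 (chromosome III, 13540122 to 13543534) had 37.03, 33.5 and 28.2 FPKM in the controls and 50.1, 63.7 and 63.7 FPKM in the prx-5-labelled libraries. Its groups did not overlap, and its log2 difference was 0.83 ± 0.17 (adjusted p = 0.0334). The control values of acs-4 were 193, 169 and 228 FPKM and the prx-5-labelled values 203, 197 and 180.2 FPKM. These ranges overlapped (log2 -0.01 ± 0.16, adjusted p = 0.970). For acs-13 the controls had 266, 238 and 334 FPKM and the prx-5-labelled libraries 308, 252 and 227 FPKM, again overlapping (log2 -0.09 ± 0.20, adjusted p = 0.819). The locus of acs-13 (13255 bp) also overlaps the annotated protein-coding genes deps-1 on the opposite strand and Y65B4BL.7 on the same strand. The signs of acs-4 and acs-13 turned when some libraries were left out, and that of acs-4 also with quantile normalization (0.04). The level of acs-5 was 0.124 to 0.199 of that of acs-4 in the controls and 0.247 to 0.353 in the prx-5-labelled libraries. A further long-chain relative, acs-17, had 8.42, 12.7 and 10.2 FPKM in the controls and 13.6, 21.01 and 19.8 FPKM in the prx-5-labelled libraries (log2 0.74 ± 0.23, adjusted p = 0.105). It was called without prx-5 replicate 1, the lowest of its prx-5-labelled libraries.

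The mitochondrial synthetase acs-2, which the worm induces on fasting through the nuclear receptor NHR-49, varied widely among the controls. Its controls had 2.63, 22.4 and 24.96 FPKM, so control replicate 1 was far below the other controls. The prx-5-labelled libraries had 22.5, 53.7 and 33.4 FPKM, and the lowest of them overlapped the controls. The log2 fold change was 1.44 ± 0.75 (adjusted p = 0.318), and it was 0.52 without control replicate 1. In that library acs-14, acs-22 and acs-5 had their highest control value and acs-1 its lowest.

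The acetyl-CoA synthetase acs-19, which activates acetate rather than a long chain, had 205, 165 and 203 FPKM in the controls and 280.0, 306 and 227 FPKM in the prx-5-labelled libraries. The groups did not overlap, but the log2 difference of 0.50 ± 0.18 did not pass the test (adjusted p = 0.159). The same held for acs-12 (log2 0.52 ± 0.19, adjusted p = 0.164), acs-16 (log2 0.36 ± 0.21, adjusted p = 0.365) and acs-21 (log2 0.69 ± 0.23, adjusted p = 0.136). Of these, acs-21 was called without prx-5 replicate 1. For acs-11 the ranges overlapped at 31.9 to 42.0 and 37.8 to 47.5 FPKM, with a log2 fold change of 0.17 ± 0.17.

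Among the synthetases of low level, acs-6, acs-10, acs-18 and acs-15 shared the highest library of each group. The gene acs-6 had 0.989, 3.27 and 1.66 FPKM in the controls and 0.531, 1.54 and 0.570 FPKM in the prx-5-labelled libraries, and its log2 difference of -0.63 ± 0.37 was the lowest of the acs genes (adjusted p = 0.375). The gene acs-10 had 1.16, 2.46 and 0.965 FPKM and 0.689, 1.93 and 0.518 FPKM (log2 -0.32 ± 0.36, adjusted p = 0.644). The gene acs-18 had 0.725, 2.28 and 0.891 FPKM and 0.378, 1.81 and 0.768 FPKM (log2 -0.22 ± 0.38, adjusted p = 0.771). In each of these genes, and in acs-15, control replicate 2 was the highest control and prx-5 replicate 2 the highest prx-5-labelled library. These are also the highest libraries of their groups for the sperm markers, which summed to 300 FPKM in control replicate 2 against 135 and 84.5 FPKM in the other controls, and to 89.7 FPKM in prx-5 replicate 2 against 47.6 and 52.7 FPKM. Of 7 tested sperm markers 0 were called (3 were lower at an unadjusted p under 0.05, and the authors' deposited table called 3 lower). The marker spe-9, measured over 10.1% of its gene, was listed at 0 in control replicate 3 and prx-5 replicate 1. The epidermis markers were highest in the same libraries by their median, at 1.41 (log2 against the control mean) in control replicate 2 against -0.43 and -0.68, and at 1.52 in prx-5 replicate 2 against 0.38 and 0.64. Most single epidermis markers, however, were highest in another prx-5-labelled library. Their summed level was lowest in prx-5 replicate 2, at 506 FPKM against 540 and 569 FPKM in prx-5 replicates 1 and 3. The part of sperm or epidermis in the levels of these acs genes was not tested. The low genes acs-3 and acs-9 did not share these highest libraries and had overlapping groups. The gene acs-9 was listed at 0 in control replicate 1. Only part of the gene was measured for acs-9 (24.2%), acs-15 (23.6%), acs-6 (59.1%) and acs-18 (60.3%).

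**Figure D2:**
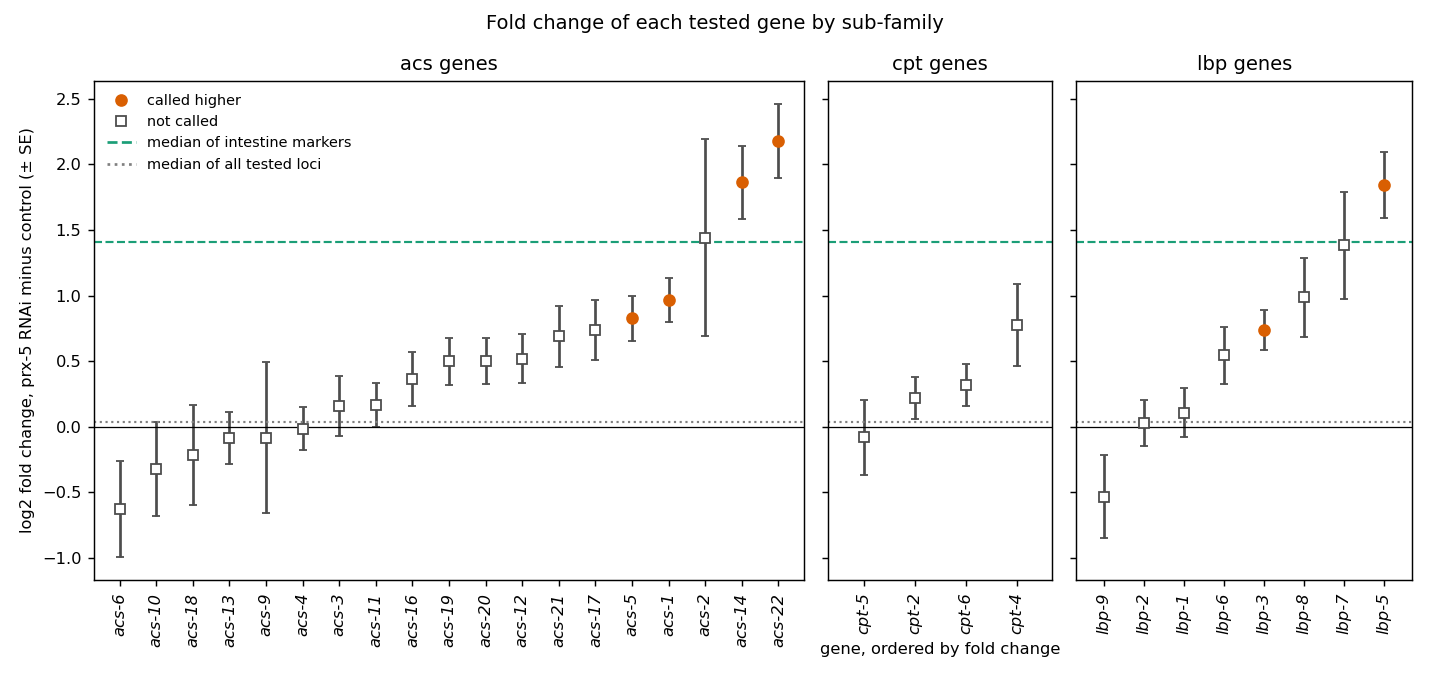
Log2 fold change (prx-5-labelled minus control, error bars SE, n = 3 per group) of the 31 tested genes in the acs, cpt and lbp groups. Filled circles are the 6 genes called higher. The dashed line is the median of the intestine markers (1.41), above which only acs-22, acs-14, lbp-5 and acs-2 lie, and the dotted line is the median of all tested loci (0.04).

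The carnitine palmitoyltransferases had the lowest median log2 fold change of the sub-families. The inner-membrane enzyme gene cpt-2, by far the most abundant of those measured, had 78.3, 65.04 and 77.2 FPKM in the controls and 95.7, 86.1 and 75.6 FPKM in the prx-5-labelled libraries. The ranges overlapped (log2 0.22 ± 0.16, adjusted p = 0.469). The gene cpt-6 had 5.89, 6.22 and 6.13 FPKM in the controls and 7.93, 7.31 and 8.24 FPKM in the prx-5-labelled libraries. Its groups did not overlap, yet its log2 difference of 0.32 ± 0.16 did not pass the test (adjusted p = 0.309). The gene cpt-5 had 5.88, 6.37 and 4.97 FPKM in the controls and 8.53, 3.89 and 4.50 FPKM in the prx-5-labelled libraries, so prx-5 replicate 1 lay above and the other prx-5-labelled libraries below all controls (log2 -0.08 ± 0.28, adjusted p = 0.896). At low level, cpt-4 had 0.597, 1.79 and 0.587 FPKM in the controls and 2.94, 1.68 and 2.35 FPKM in the prx-5-labelled libraries (log2 0.77 ± 0.31, adjusted p = 0.205). It was the 1 cpt gene with an unadjusted p under 0.05, and the authors' deposited table called 0 of these 4 genes. For the left-out genes, the authors' deposited table gave log2 fold changes of -0.10 for cpt-1 (q = 0.808) and 0.08 for cpt-3 (q = 0.938).

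The lipid-binding proteins included the most abundant members, and these genes, lbp-9, lbp-6 and lbp-2, were not called. Between 83.1% and 91.7% of the summed lbp FPKM of a library lay in these genes. The called genes lbp-5 and lbp-3 made up 5.06% to 5.86% of it in the controls and 8.64% to 11.7% in the prx-5-labelled libraries. The direction of this change also follows from their choice as genes called higher.

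The gene lbp-5 (WBGene00002257, minus strand of chromosome I, 6731087 to 6732292), an intracellular fatty acid carrier that takes part in worm fat storage, had the highest fold change of the lbp genes. Its controls had 44.8, 43.9 and 24.2 FPKM and its prx-5-labelled libraries 119.6, 141 and 138 FPKM. The lowest prx-5-labelled library was well above the highest control, and the log2 difference was 1.84 ± 0.25 (adjusted p = 0.0130), 3.53-fold by the means. Its neighbour lbp-6 lies 1890 bp away on the same strand. That gene had 795, 817 and 611 FPKM in the controls and 875, 1168 and 1202 FPKM in the prx-5-labelled libraries, without overlap (log2 0.54 ± 0.22, adjusted p = 0.205). The level of lbp-5 was 0.0397 to 0.0564 of that of lbp-6 in the controls and 0.115 to 0.137 in the prx-5-labelled libraries.

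A second neighbourhood, on the X chromosome, holds lbp-3, lbp-1 and lbp-2 in a row, which encode lipid-binding proteins with secretion signals. The gene lbp-3 (WBGene00002255, 3257198 to 3258161), whose protein carries a fat signal from peripheral tissue to neurons, had 106, 121 and 127 FPKM in the controls and 176, 212 and 205 FPKM in the prx-5-labelled libraries. The groups did not overlap, and the log2 difference was 0.74 ± 0.15 (adjusted p = 0.0321). Its neighbour lbp-1, 986 bp away, had 78.3, 112 and 83.96 FPKM in the controls and 86.4, 98.6 and 109 FPKM in the prx-5-labelled libraries (log2 0.11 ± 0.19, adjusted p = 0.765). The gene lbp-2 had 719, 746 and 849 FPKM in the controls and 849, 717 and 788 FPKM in the prx-5-labelled libraries (log2 0.03 ± 0.18, adjusted p = 0.950). Both overlapped between the groups, and their signs turned with the authors' constants, to -0.03 and -0.11. The level of lbp-3 was 1.08 to 1.51 times that of lbp-1 in the controls and 1.88 to 2.15 times in the prx-5-labelled libraries.

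On chromosome V, lbp-7 and lbp-8 lie 3663 and 14884 bp beyond cpt-5. The controls of lbp-7 spread from 36.3 FPKM in replicate 1 over 23.02 to 10.02 FPKM in replicate 3, while the prx-5-labelled libraries lay close together at 57.9, 53.99 and 53.1 FPKM. The groups did not overlap, and the SD was 56.9% of the mean in the controls. The log2 difference of 1.38 ± 0.41 did not pass the test (adjusted p = 0.0887). The gene lbp-8, whose protein carries a lipid signal from lysosomes to the nucleus, had 3.22, 1.83 and 1.44 FPKM in the controls and 7.22, 4.60 and 3.92 FPKM in the prx-5-labelled libraries. Its groups were also apart (log2 0.99 ± 0.30, adjusted p = 0.101).

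The most abundant member, lbp-9, split the prx-5-labelled group. It had 1206, 947 and 1267 FPKM in the controls, 1255 FPKM in prx-5 replicate 1, and 620.2 and 613.8 FPKM in prx-5 replicates 2 and 3. The groups overlapped through prx-5 replicate 1 alone, and the log2 difference was -0.53 ± 0.32 (adjusted p = 0.389). Without that library it was -0.87 and was called lower. For lbp-4, left out by the rule, the authors' deposited table gave a log2 fold change of -0.47 (q = 0.354).

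**Figure D3:**
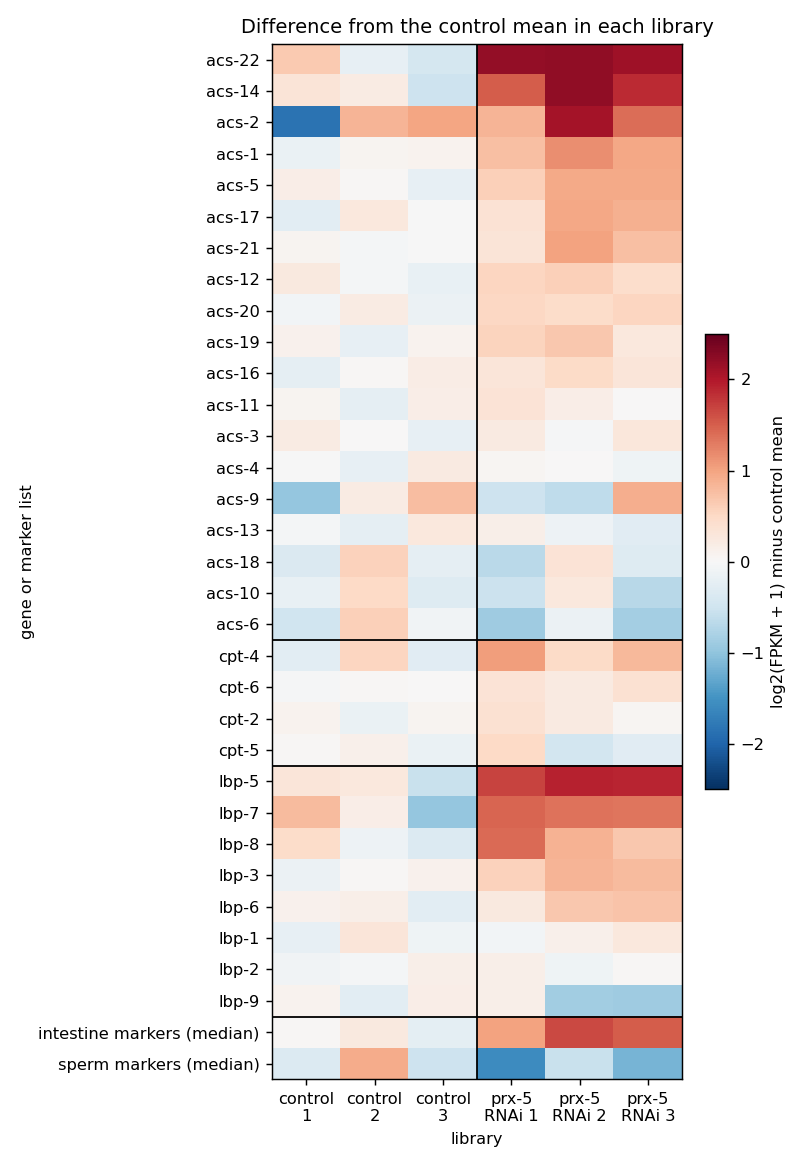
Difference of each library from the control mean, as log2(FPKM + 1), for the 31 tested genes and, in the bottom rows, the median of the intestine and sperm markers. Red is above and blue below the control mean. Columns of control replicate 3 are low for acs-14, lbp-5 and lbp-7, the column of control replicate 1 is low for acs-2, and prx-5 replicate 1 differs from the other prx-5-labelled columns in lbp-9.

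Across all members tested, the groups did not overlap in 16 genes, each time with the prx-5-labelled libraries higher. Over all tested loci 27% did not overlap, 21.2% with the prx-5-labelled libraries higher and 5.81% lower. Beside the 6 called genes these were acs-12, acs-16, acs-17, acs-19, acs-20, acs-21, cpt-6, lbp-6, lbp-7 and lbp-8. Control replicate 3 was the lowest control for acs-5, acs-12, acs-14, acs-20, acs-22, lbp-5, lbp-6, lbp-7 and lbp-8, and its intestine markers were also the lowest of the controls, 0.24 below the control mean (median, log2). The same library was the highest control for acs-1, acs-16 and lbp-3. The part of the intestine in these differences was not tested. The 6 called genes lay a median of 1.13, 1.55 and 1.42 above the control mean in prx-5 replicates 1, 2 and 3, and the 25 genes tested but not called 0.32, 0.26 and 0.28. The called genes were picked by this same difference, so their larger medians follow from the choice.

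Other genes of the pathway were read from the same fit. Of 14 tested genes of peroxisomal fatty acid breakdown, 12 were called higher and 0 lower, and their median difference was 2.96 (log2). They include acs-7, the synthetase kept out of the set described here, at 3.88 ± 0.33, above every member. Of 15 tested genes of mitochondrial breakdown, 3 were called higher and 0 lower, with a median of 0.04. The called genes were the hydroxyacyl-CoA dehydrogenase gene hacd-1, the enoyl-CoA hydratase gene ech-7 and the acyl-CoA dehydrogenase gene acdh-10. The locus of ech-7 (chromosome I, 14358580 to 14370030) reaches far beyond the annotated gene, which starts at 14367616. What else was counted in the ech-7 locus was not tested. Of 10 tested genes of acyl-CoA binding and carnitine supply, 4 were called higher and 0 lower, with a median of 0.41. Among these were both genes for the enzymes of the last step of carnitine synthesis. The gene gbh-1 had 11.7, 10.3 and 10.9 FPKM in the controls and 23.6, 28.3 and 24.9 FPKM in the prx-5-labelled libraries (log2 1.15 ± 0.15, adjusted p = 0.0123). The gene gbh-2 had 7.01, 8.24 and 6.18 FPKM in the controls and 13.1, 22.1 and 19.9 FPKM in the prx-5-labelled libraries (log2 1.23 ± 0.23, adjusted p = 0.0260). The locus of gbh-2 (chromosome II, 8485933 to 8508962) reaches far beyond the annotated gene, which ends at 8487571. What else was counted in it was not tested. The other 2 called genes were the acyl-CoA-binding protein genes acbp-3 (log2 1.53 ± 0.28) and maa-1 (1.46 ± 0.18). Of these tested genes, the authors' deposited table called 12 of peroxisomal breakdown, 2 of mitochondrial breakdown and 3 of binding and carnitine supply higher. It called 2 of mitochondrial breakdown lower. It did not call acdh-10 (q = 0.125) or maa-1 (q = 0.0549). Differences between these lists, or between them and the acs, cpt and lbp genes, were not tested.

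The authors' deposited table, made from the same 6 libraries, called 10 of the 31 tested members, 9 higher and 1 lower, against 14.4% of all tested loci, 9.52% as higher and 4.85% as lower. It held all 6 genes called by limma and also acs-2 (log2 1.00, q = 0.00101), acs-17 (0.66, q = 0.0434), lbp-7 (1.11, q = 0.00588) and, as lower, lbp-9 (-0.61, q = 0.0152). The libraries of acs-2 and lbp-9 overlapped between the groups, as given above. Those of acs-17 and lbp-7 did not. The loci of acs-17, acs-20, lbp-6 and lbp-9 overlap annotated protein-coding genes on the opposite strand.

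**Figure D4:**
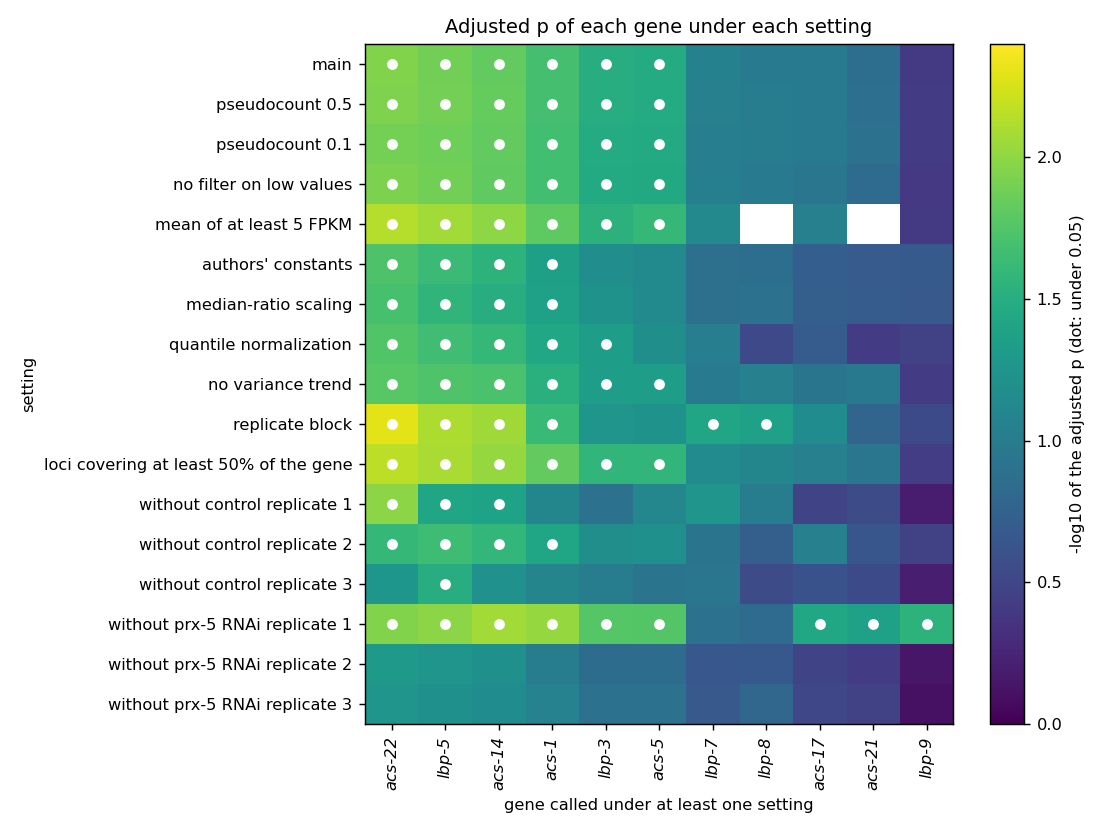
Adjusted p, as -log10, of the 11 genes called under at least one of the settings tried, by setting. White dots mark an adjusted p under 0.05 and white fields a gene left out by the filter. The settings with 1 library left out hold most of the lost calls, and acs-22, lbp-5, acs-14 and acs-1 were called under every plotted setting that used all 6 libraries.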

How the data were processed

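RNA-seq libraries of 6 samples were compared, 3 control and 3 labelled prx-5 RNAi. Per the file headers, the authors deposited FPKM per locus for each library, and a comparison table. The deposited comparison holds group FPKM, log2 ratios, p-values and q-values, beside a score (the test statistic). Per the submitters' processing notes the tools were CASAVA, Bowtie, Cufflinks and Cuffdiff, and versions, genome build and filters are not given in the sources used here. Of 15493 loci with a single gene identifier, 15397 identifiers were found in the WBcel235 annotation and 15112 loci overlapped their gene there. Starts were moved to counting from 1.

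Tables of 15796 loci were joined by row. Loci whose labels differed between tables (913), or whose group FPKM was not recovered from the libraries within 2% (94), were left out. Estimates marked FAIL or HIDATA (33) were treated as missing. Loci averaging 1 FPKM or more were tested on log2(FPKM + 1) by limma 3.58.1 in R 4.3.3, moderated by empirical Bayes with a trend in variance, tested on simulated data, and p-values were adjusted by Benjamini-Hochberg over 13350 loci. Fold changes on this scale understate the change of low genes. Errors are SE of the fit or SD with n = 3.

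Members, gene lists and named genes were chosen with earlier results of these data known. Every member could be named. Values in every library were given for called members, acs-2, and the most abundant and most changed members of each sub-family. Other genes named are the targeted genes, called list members and annotated genes that overlap a member, and the sperm marker spe-9 was named after its values were seen. The pairs of genes whose ratios are given were chosen after their values were seen. Each sets a gene called higher over a gene not called, so the direction of these ratios was largely set in advance. Besides the lists given above, markers of germline (0 of 14 called, 0 at an unadjusted p under 0.05, 2 lower in the authors' deposited table), muscle, epidermis and neurons were counted. Of 8 muscle markers 1 was called lower, 6 were lower at an unadjusted p under 0.05 and 6 in the authors' deposited table, with a median log2 fold change of -0.69. Of 7 epidermis markers 1 was called lower while 6 lay above 0, with a median of 0.45, and the authors' deposited table called 3 higher and 1 lower. Of 9 neuron markers 1 was called higher, with a median of 0.53. Alternatives were other pseudocounts, filters, scalings and variance models, a replicate block, loci covering at least 50% of the gene, a fold limit, and each library left out.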

Additional observations from a re-analysis of the deposited data

How the results depend on the processing

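The 6 called genes had a log2 fold change above 0 under each of the 16 settings run. They did not overlap between the groups, so leaving out a library could not turn a sign. The number of called acs genes was 4 and fell to 2 with a log2 fold limit of 1. It was 3, without acs-5, with the authors' constants (adjusted p = 0.0729), median-ratio scaling (0.0730) and quantile normalization (0.0633). The number of called lbp genes was 2 and fell to 1 with the authors' constants, with median-ratio scaling and with the fold limit. The count over all tested loci, 1164, became 714 with the authors' constants, 656 with median-ratio scaling and 770 with quantile normalization. The share called higher was 86.3% as reported and 73.1%, 73.02% and 68.96% in these. Leaving out 1 library gave 0 to 6 acs genes, 0 to 3 lbp genes, 0 cpt genes and 78 to 1836 loci in all. The labels name no shared source for libraries of the same number, so the numbers were not taken to pair them. Deviations of same-numbered libraries from their group means had correlations of 0.29, 0.23 and -0.12 over 13337 loci. With 3 libraries per group these correlations cannot decide whether the libraries were paired. The replicate block gave 3 acs genes, 0 cpt genes, 3 lbp genes and 1255 loci. It left acs-5 and lbp-3 uncalled and added lbp-7 (adjusted p = 0.0385) and lbp-8.

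Signs turned in 21 of 486 values, in 9 genes, none of them called. With quantile normalization they were -0.11 for acs-3, 0.043 for acs-4 and -0.0065 for cpt-6. With the authors' constants they were -0.029 for lbp-1 and -0.11 for lbp-2, which was -0.070 with median-ratio scaling, and with a pseudocount of 0.1 it was 0.17 for acs-9. With 1 library left out, values ran from -0.12 to 0.10 for acs-4, from -0.57 to 0.30 for acs-9, from -0.21 to 0.046 for acs-13, from -0.50 to 0.071 for acs-18, from -0.37 to 0.11 for cpt-5 and from -0.034 to 0.10 for lbp-2. The cause of these changes was not tested. Read depth is unknown, so the counting error of genes near 1 FPKM cannot be given.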
